A study of Mus musculus with 8 samples.

Results

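Igfbp1 encodes a secreted binding protein of insulin-like growth factors, and its transcript in the liver is held down by insulin. In 8 livers of fasted and refed mice it was either high or low, with nothing in between. All 8 arrays of the series were therefore placed by the log2 value of their own Igfbp1 probe set, above 9 or below 9, and not by the genotype of the mouse. This placed 4 of the 8 livers on each side. The high side held control 1 and RKO 2, 3 and 4, and the low side held controls 2, 3 and 4 and RKO 1. The placing was read from the measured values, so the sides are not groups of the study. They are described array by array, with no mean, fold change or p-value between them.

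The livers came from adult male mice that were fasted for 16 h and then given free access to food for 3 h. Controls (n = 4) are labelled wild type. The other mice (n = 4), called RKO in the labels, have the genotype Rictor floxed and are described as a knockout restricted to the liver. Rictor marks mTOR complex 2, a kinase that phosphorylates Akt in response to insulin. The labels used here name neither the recombinase behind the knockout nor the alleles of the controls beyond wild type, and cells of the liver other than hepatocytes may keep the gene. Each mouse gave 1 Affymetrix Mouse Gene 1.0 ST array, and p-values measure the spread between these samples. Expression is given as log2 values from RMA, on which a difference of 1 is a 2-fold difference in signal.

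Feeding raises insulin, and insulin acts on the liver through its receptor, the receptor substrates Irs1 and Irs2, PI3-kinase and Akt. Akt keeps the transcription factor FoxO1 out of the nucleus, so FoxO1 targets such as Igfbp1, Irs2, Pck1 and G6pc are high in the fasted liver and low after a meal. Lipogenic genes such as Srebf1 and Scd1, and the secreted protein gene Angptl8, run the other way and are high after feeding.

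FoxO1 acts on the Igfbp1 and G6pc genes through insulin response elements in their promoters, whose core is CAAAACA. The core was searched on both strands of RefSeq promoter windows (GRCm38.p6), from 250 bases before to 50 bases after each start. The windows below belong to genes that read higher on the Igfbp1-high arrays and hold the core, and they are shown so that it can be seen in its context. Capitals mark the core, or its reverse complement TGTTTTG, on the strand of the gene. Igfbp1 has it 108 to 102 bases before the start (chr11:7197634-7197730, plus strand), Irs2 37 to 31 bases before (chr8:11008930-11009011, minus strand) and G6pc 174 to 168 bases before (chr11:101367497-101367593, plus strand). Lepr has it 114 to 108 bases before a start (chr4:101717747-101717843, plus strand).
Igfbp1: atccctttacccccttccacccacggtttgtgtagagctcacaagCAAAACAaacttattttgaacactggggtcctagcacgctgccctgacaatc
Irs2: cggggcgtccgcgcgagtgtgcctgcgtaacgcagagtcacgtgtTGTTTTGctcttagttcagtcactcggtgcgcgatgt
G6pc: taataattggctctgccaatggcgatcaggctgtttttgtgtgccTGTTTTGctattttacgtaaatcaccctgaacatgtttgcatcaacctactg
Lepr: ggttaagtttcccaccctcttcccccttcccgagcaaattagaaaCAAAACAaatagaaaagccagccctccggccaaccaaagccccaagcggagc

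The core was found in 2064 of 32851 promoter windows, or 6.28%, and in 1946 of 27025 genes, or 7.2%. Among 28 matched genes of a panel of insulin signalling and hepatic metabolism, 6 held it: Igfbp1, Irs2, G6pc, Irs1, Cpt1a and Thrsp. Of these, Irs1, Cpt1a and Thrsp did not separate the sides. The FoxO consensus GTAAACA lay in 4.05% of genes and in 1 panel gene, Elovl6. The sterol regulatory element TCACNCCAC lay in 1.44% of genes and in 1 panel gene, Mlxipl, and the cAMP response element TGACGTCA in 2.03% of genes and in 1 panel gene, Pnpla3. Among the genes with the widest gaps named below, 6 matched on the higher side, where Irs2 and Lepr held CAAAACA. On the lower side 12 matched, and CAAAACA lay in Dpy19l3 and GTAAACA in Ahcyl2. A match describes the letters of a window and shows no binding.

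The arrays covered 19938 genes named by a probe set with 1 gene symbol. The array medians lay between 6.90 and 7.03, with the lowest on RKO 1, and any pair of arrays correlated between 0.987 and 0.994. Hepatocyte transcripts were abundant on every array. Albumin, Alb, read between 14.16 and 14.23, and 7 of the 10 fixed hepatocyte markers were measured. The Rictor probe set read 9.47, 9.28, 9.23 and 9.64 on controls 1 to 4, and 9.15, 9.51, 9.68 and 9.47 on RKO 1 to 4. The labels overlapped in Rictor and differed by 0.05 (SE 0.13, limma adjusted p = 0.936), and the sides of Igfbp1 overlapped too. Which exons the probe set covers was not examined, so it does not check the labels, and RKO below means the library so labelled.

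Igfbp1 read 10.04 on control 1, against 7.40, 7.30 and 7.29 on controls 2, 3 and 4. It read 7.76 on RKO 1, against 10.10, 10.10 and 9.65 on RKO 2, 3 and 4. Both labels therefore held arrays of either kind, and in each label the array numbered 1 lay apart from the other 3. The arrays nearest to the threshold were RKO 4 at 9.65 and RKO 1 at 7.76, which leaves an empty stretch of 1.89 log2 units. By label, controls averaged 8.01 ± 1.36 (SD, n = 4) and RKO arrays 9.40 ± 1.11 (SD, n = 4). The difference of 1.39 (SE 0.61, 95% interval from 0.06 to 2.72) missed the threshold after adjustment (limma adjusted p = 0.436). An exact two-sided permutation test over the 70 arrangements of the labels gave p = 0.114, where 4 arrays against 4 allow no p below 0.0286.

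**Figure D1:**
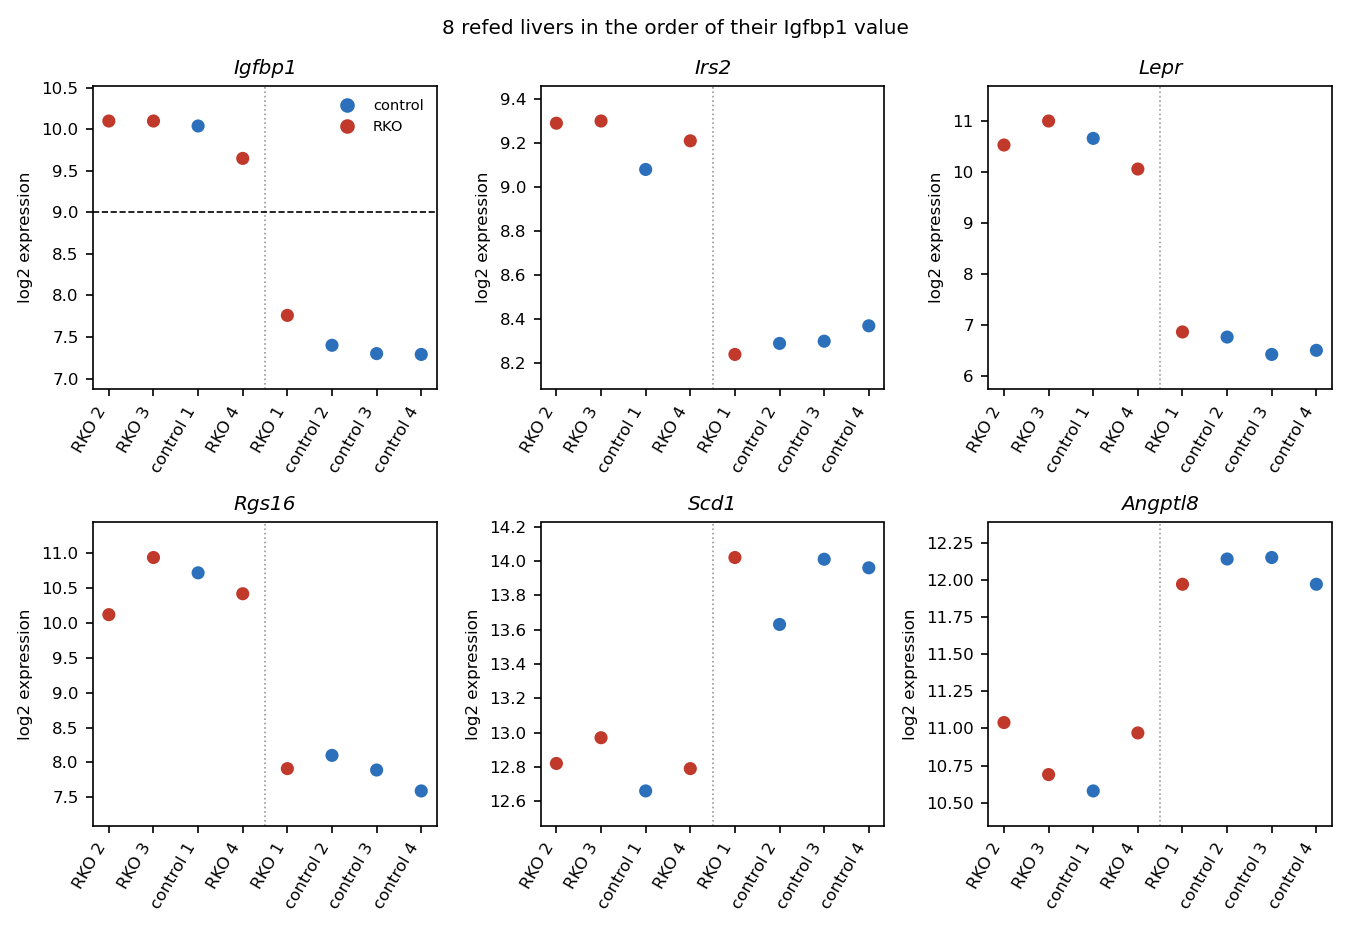
Log2 expression of Igfbp1, Irs2, Lepr, Rgs16, Scd1 and Angptl8 (vertical axes) on the 8 arrays in the order of their Igfbp1 value (horizontal axes). Each point is 1 array, blue for control and red for RKO; the dashed line is the threshold of 9 and the dotted line divides the sides. Irs2, Lepr and Rgs16 stand high with Igfbp1 and Scd1 and Angptl8 stand low, with control 1 among the RKO arrays 2 to 4 and RKO 1 among the controls 2 to 4.

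A gene was taken to follow Igfbp1 when all 4 high arrays lay above, or all 4 below, all 4 low arrays, and its size was the gap between the nearest arrays of the 2 sides. Igfbp1 included, 666 of 19938 genes (3.34%) lay higher on the Igfbp1-high arrays and 1125 (5.64%) lay lower. Under the labels, the same count gave 360 genes (1.81%) higher in RKO and 521 (2.61%) lower. Most gaps were small, with a median of 0.05 among the higher and 0.06 among the lower genes of the Igfbp1 sides and of 0.04 in both directions under the labels. The counts differed most at wide gaps. A gap of at least 0.5 was reached by 14 genes higher and 32 lower on the Igfbp1-high arrays, and by 0 genes in either direction under the labels. The widest gap under the labels was 0.37 (Sptssa, a subunit of serine palmitoyltransferase, higher in RKO). Since the sides were chosen from these same arrays, the counts describe them and test nothing.

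**Figure D2:**
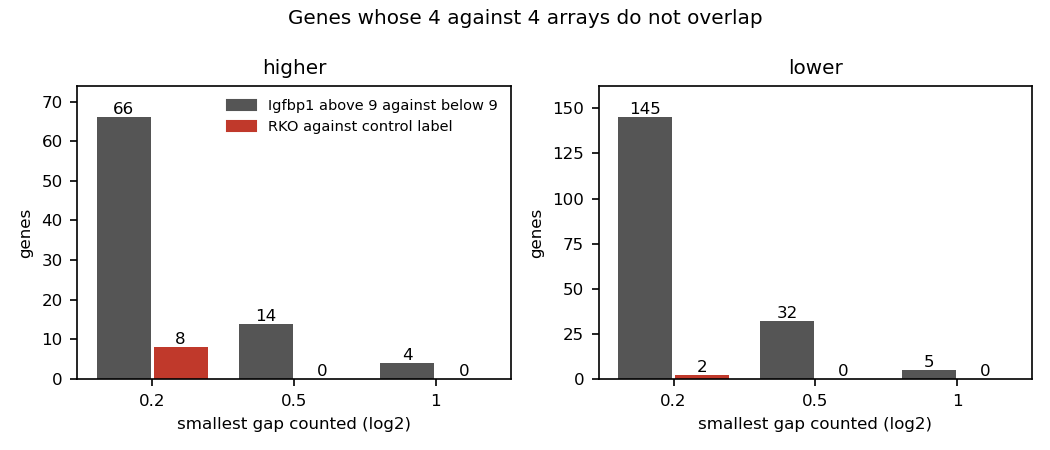
Number of genes (vertical axes) whose 4 against 4 arrays did not overlap with a gap of at least 0.2, 0.5 or 1 log2 unit between the nearest arrays (horizontal axes), for genes higher (left) and lower (right). Grey bars divide the arrays by Igfbp1 and red bars by genotype label; at 0.5 the grey bars stand at 14 and 32 and the red bars at 0.

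These counts depended on the scaling and on single arrays. With each array centred on its median, 406 genes lay higher and 1233 lower on the Igfbp1-high arrays, and 519 lay higher and 228 lower under the labels. With a repeated quantile normalisation the counts were 628 and 1132 by Igfbp1, and 486 and 459 by label. Leaving out an array can only add genes, since fewer arrays must be in order. Without control 1, 1369 genes lay higher and 2517 lower by Igfbp1, and without RKO 1 and without control 3 the higher count was 1100 and 1107. By label, the higher and lower counts were 1145 and 2208 without RKO 1, 865 and 1158 without control 1 and 613 and 1045 without RKO 2. There the higher count alone passed 1.5 times its value without control 3 (764) and RKO 4 (575), and the lower count without control 4 (898). Control 1 was the high array nearest to the low side in 264 of the 666 higher and 546 of the 1125 lower genes. An order that matched Igfbp1 within both labels, that is control 1 against the other controls and RKO 1 against the other RKO arrays, was found in 1530 genes (7.67%) upward and 1918 (9.62%) downward.

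The gene that followed Igfbp1 with the widest gap was Lepr, the leptin receptor. Lepr read 10.66 on control 1 and 10.53, 11.00 and 10.06 on RKO 2, 3 and 4. It read 6.77, 6.43 and 6.51 on controls 2, 3 and 4 and 6.87 on RKO 1, so that the gap was 3.20. Rgs16, which speeds the shut-off of G proteins, read 10.72, 10.12, 10.94 and 10.42 on the high arrays in the same order and 8.10, 7.89, 7.59 and 7.91 on the low arrays, a gap of 2.02. In both genes each side was compact, and control 1 lay inside the range of RKO 2 to 4. Nipal1, a magnesium transporter of the NIPA family, had a gap of 1.08, from 8.55 on RKO 4 down to 7.47 on RKO 1. Lepr, Rgs16 and Nipal1 were, beside Igfbp1, the 3 genes higher by at least 1 log2 unit.

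Among receptors and signalling genes, Irs2 read 9.08, 9.29, 9.30 and 9.21 on control 1 and RKO 2, 3 and 4. The low arrays read 8.29, 8.30, 8.37 and 8.24 on controls 2, 3 and 4 and RKO 1, a gap of 0.71. Irs2 was also a marker by which the state was proposed, so this is a description and not a separate result. Erbb3, a neuregulin receptor of the epidermal growth factor receptor family, had a gap of 0.55, and Gucy2c, the guanylate cyclase receptor of the gut hormone guanylin, one of 0.54. Cntnap1, a membrane protein known from myelinated axons, had a gap of 0.57, between RKO 4 at 7.87 and control 4 at 7.29.

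The other genes among the 12 widest upward gaps act in lipid handling, transport or secretion. Cidec, a coat protein of lipid droplets, read 10.39, 9.95, 11.35 and 9.91 on control 1 and RKO 2, 3 and 4, and 8.05, 9.09, 9.02 and 9.13 on controls 2, 3 and 4 and RKO 1. RKO 3 was the highest and control 2 the lowest by a wide margin, so the gap of 0.78 understates the spread of this gene. Angptl4, a secreted inhibitor of lipoprotein lipase, read 10.29, 10.46, 10.68 and 10.47 on the high arrays and 9.43, 9.42, 9.01 and 9.62 on the low arrays, a gap of 0.67. Gpcpd1, which splits glycerophosphocholine, had a gap of 0.72 with RKO 4 highest at 12.28. Slc25a47, a mitochondrial carrier of hepatocytes, and Fgl1, a fibrinogen-like protein secreted by hepatocytes, had gaps of 0.55 and 0.53.

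Among the genes lower on the Igfbp1-high arrays, the feeding-induced genes Angptl8 and Scd1 stood out by their known roles. Angptl8, a secreted regulator of lipoprotein lipase, read 10.58 on control 1 and 11.04, 10.69 and 10.97 on RKO 2, 3 and 4. The low arrays read 12.14, 12.15 and 11.97 on controls 2, 3 and 4 and 11.97 on RKO 1, a gap of 0.93. Scd1, the stearoyl-CoA desaturase and another marker of the proposed state, read 12.66, 12.82, 12.97 and 12.79 on the high arrays in that order. Its low arrays read 13.63, 14.01, 13.96 and 14.02, a gap of 0.67. The upper values of Scd1 lay near the top of the scale, where the highest value of any probe set was 14.62, so its differences may be compressed.

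The widest gaps downward belonged to genes outside the fixed pathway lists. Obp2a, an odorant-binding lipocalin, read 7.58, 7.06, 8.47 and 8.18 on controls 2, 3 and 4 and RKO 1, and between 5.46 and 5.57 on the 4 high arrays. Those high arrays lay at the first quartile of their arrays, which was between 5.54 and 5.67, so the gap of 1.49 may be a lower bound. Slc10a2, the apical sodium-dependent bile acid transporter, read 5.93, 6.20, 6.63 and 6.04 on the high arrays and 7.98, 8.67, 8.71 and 8.90 on the low arrays, a gap of 1.35. Nat8, which acetylates cysteine conjugates, read 8.28, 8.21, 7.97 and 7.99 against 9.66, 9.72, 9.66 and 10.07, a gap of 1.38. Raet1d, a ligand of the NKG2D receptor of natural killer cells, had a gap of 1.19. Nat8 and Raet1d, and likewise Acnat2 below, have near-identical relatives in the mouse genome, and which copy their probe sets measured is uncertain.

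The rest of the 12 widest downward gaps lay between 0.69 and 0.88. Ncam2, a neural cell adhesion molecule, had 0.88, with high arrays between 5.41 and 5.89, near the first quartile of the arrays, so this gap too may be a lower bound. Sdr9c7, a short-chain dehydrogenase, had 0.87. Chic1 had 0.85, and its other probe set also lay lower, by 0.37. Mme, the peptidase neprilysin, had 0.83 and Dpy19l3, a mannosyltransferase, 0.82. Acnat2, a peroxisomal acyltransferase that conjugates fatty acids to amino acids, had 0.71 and Ahcyl2, a relative of S-adenosylhomocysteine hydrolase, 0.69. In all 12 of these genes RKO 1 read with controls 2 to 4 and control 1 with RKO 2 to 4, as the rule of selection requires.

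**Figure D3:**
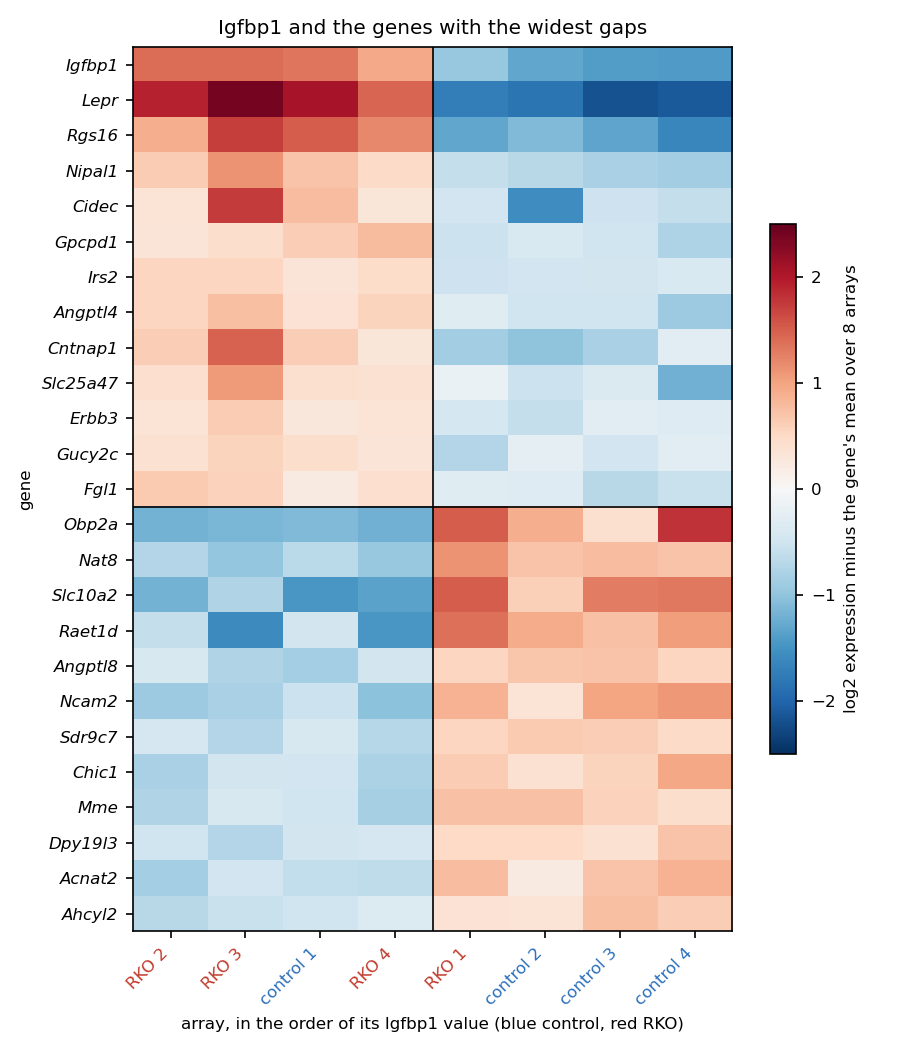
Log2 expression minus the gene's mean over the 8 arrays (colour, red above and blue below the mean) for Igfbp1 and the 12 genes with the widest gaps in each direction (rows), on the arrays in the order of their Igfbp1 value (columns; red array names RKO, blue control). Lepr and Rgs16 show the widest contrast, and the black vertical line between RKO 4 and RKO 1 is the border of the sides.

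Tested by label, none of these genes passed the adjusted threshold. Across all genes limma called 0 of 19938 (0%) at an adjusted p under 0.05, while 2084 had an unadjusted p under 0.05. Lepr differed by 2.02 between RKO and control (SE 0.97, limma adjusted p = 0.475) and Rgs16 by 1.27 (SE 0.69, limma adjusted p = 0.529). Irs2 differed by 0.50 (SE 0.24, limma adjusted p = 0.473), Angptl8 by -0.54 (SE 0.33, limma adjusted p = 0.597) and Scd1 by -0.42 (SE 0.30, limma adjusted p = 0.662). In each of these genes both labels held an array that read with the other label. Differences larger relative to their error were found in Fgl1 (0.67, SE 0.22), Angptl4 (0.77, SE 0.26) and Slc25a47 (0.86, SE 0.29), whose 95% intervals left out 0 and whose limma adjusted p-values were 0.291, 0.313 and 0.317. The calls by label depended on single arrays: 59 genes passed without control 1 and 877 without RKO 1. With array weights 707 passed; RKO 1 had the lowest weight, 0.467, and which weight brought the calls was not tested. None of these fits is a separate test.

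The fixed list of insulin-repressed FoxO1 targets leaned upward. Of its 20 members, all measured, 7 lay higher and 0 lower on the Igfbp1-high arrays, or 35% against 3.34% of all genes, and 7 remained with either other scaling. Igfbp1 itself is 1 of the 7. The others were Irs2, Pck1, G6pc, Txnip, Fbxo32 and Eif4ebp1, and 13 members lay in neither direction. Irs2 was also a marker by which the state was proposed. Gaps were 0.71 in Irs2 and 0.35 in G6pc. They were narrower in Pck1 (0.14), Eif4ebp1 (0.12), Txnip (0.09) and Fbxo32 (0.04). The list was drawn up with earlier results of these arrays known, so its share is a description. By label, 0 members passed and the median difference was 0.10, against -0.02 over all genes.

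The gluconeogenic enzymes of that list had narrower gaps than Igfbp1 and placed control 1 below RKO 2, 3 and 4. Pck1, phosphoenolpyruvate carboxykinase, read 13.07 on control 1 and 13.73, 13.54 and 13.47 on RKO 2, 3 and 4. On controls 2, 3 and 4 and RKO 1 it read 12.67, 12.83, 12.90 and 12.93, so that control 1 lay only 0.14 above RKO 1. Without control 1 the gap of Pck1 was 0.54. G6pc, the catalytic subunit of glucose-6-phosphatase, read 13.28, 13.50, 13.70 and 13.50 on the high arrays and 12.56, 12.77, 12.77 and 12.93 on the low arrays, a gap of 0.35. Both genes, like Scd1, read near the top of the scale, so their gaps may be compressed. By label Pck1 differed by 0.55 (SE 0.14, limma adjusted p = 0.204) and G6pc by 0.56 (SE 0.17, limma adjusted p = 0.249). Both differed more, relative to their error, than Igfbp1 did.

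Of the 20 genes of the gluconeogenesis and cAMP list, 4 lay higher, Pck1, G6pc, the glucose-6-phosphate transporter Slc37a4 and the orphan receptor Nr4a1, and 0 lay lower. That is 20% higher, against 3.34% of all genes. After centring the arrays 1 member, Crtc2, lay lower. Other genes of that pathway did not separate the sides. Ppargc1a, the coactivator of gluconeogenic genes, overlapped by its brighter probe set, from 8.90 to 9.64 on the high arrays and from 8.65 to 9.04 on the low arrays. Its dimmer probe set lay higher on the high arrays by 0.14, so the gene is not settled. Among FoxO1 targets, Pdk4, which restrains pyruvate oxidation, read highest on RKO 1 at 8.87, and Insr, the insulin receptor, overlapped between 11.23 and 11.66. Foxo1 itself, Irs1 and Akt2 overlapped as well. Glucokinase, also of the panel, was not analysed here.

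**Figure D4:**
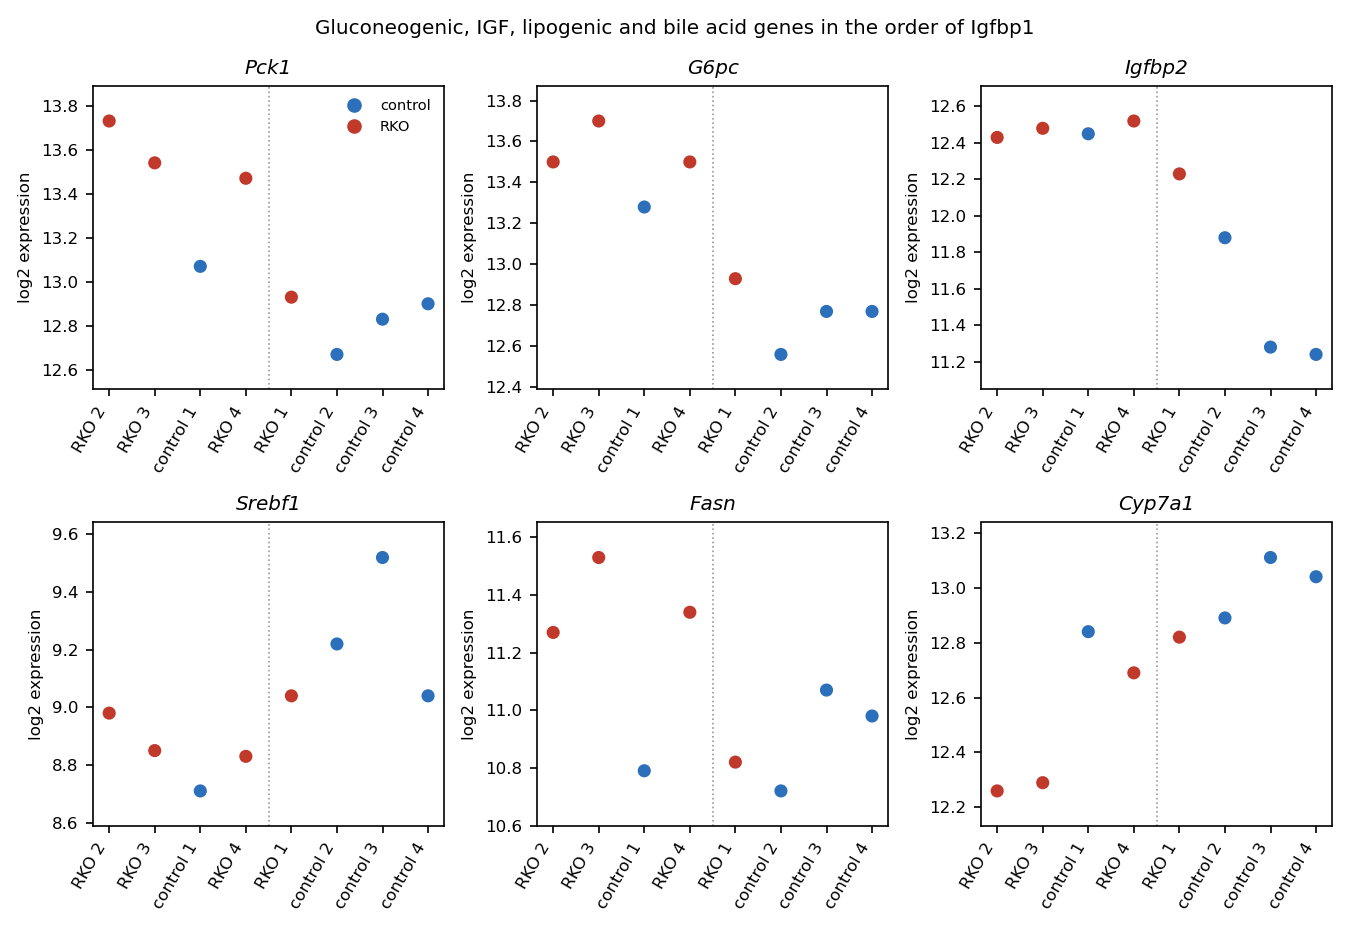
Log2 expression of Pck1, G6pc, Igfbp2, Srebf1, Fasn and Cyp7a1 (vertical axes) on the arrays in the order of their Igfbp1 value (horizontal axes; blue control, red RKO, dotted line the border of the sides). Pck1 and G6pc place control 1 between RKO 2 to 4 and the low arrays; Fasn places control 1 at 10.79 among the low arrays, so it does not separate the sides.

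Lipogenic genes did not follow as a group. Of 25 measured members of the insulin-induced lipogenic list, 3 lay lower on the Igfbp1-high arrays: Scd1, Angptl8 and Srebf1 (12%, against 5.64% of all genes). Scd1, counted here, was a marker by which the state was proposed. Elovl6 and Acacb lay higher (8%, against 3.34% of all genes), and 20 members overlapped. Srebf1, which encodes the transcription factor SREBP-1, read 8.71, 8.98, 8.85 and 8.83 on the high arrays and 9.22, 9.52, 9.04 and 9.04 on the low arrays. Its gap of 0.06 closed after a repeated quantile normalisation. Elovl6, a fatty acid elongase, lay higher by 0.09, the direction opposite to Scd1, and the gap of Acacb rounded to 0.00. Fasn, fatty acid synthase, read 10.79 on control 1, with the low arrays, and 11.27, 11.53 and 11.34 on RKO 2, 3 and 4. Acaca and Acly, which make malonyl-CoA and cytosolic acetyl-CoA, Pklr, Thrsp, Pnpla3 and Mlxipl, which encodes ChREBP, overlapped between the sides. The median difference by label over the list was 0.07.

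Scd2 and Cyp7a1 divided the arrays by label and not by Igfbp1 side. Scd2, a second stearoyl-CoA desaturase, read 8.46, 8.75, 8.85 and 8.49 on controls 1 to 4 and 8.42, 8.08, 8.14 and 8.15 on RKO 1 to 4. Cyp7a1, which catalyses the slowest step from cholesterol to bile acids, read 12.84, 12.89, 13.11 and 13.04 on controls and 12.82, 12.26, 12.29 and 12.69 on RKO arrays. In both genes control 1 was the lowest control and RKO 1 the highest RKO array, so the order within each label still matched Igfbp1. The label gaps were 0.04 and 0.02, and with centred arrays Cyp7a1 lay lower on the Igfbp1-high arrays. The differences of -0.44 (SE 0.12, limma adjusted p = 0.208) and -0.46 (SE 0.12, limma adjusted p = 0.224) did not pass.

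In the IGF axis Igfbp2, another binding protein, lay on the side of Igfbp1, and Igf1 and Ghr lay on the other. Igfbp2 read 12.45, 12.43, 12.48 and 12.52 on the high arrays and 11.88, 11.28, 11.24 and 12.23 on the low arrays, a gap of 0.21. Igf1, the growth factor, lay lower by 0.05, the growth hormone receptor gene Ghr by 0.11, and Igfals, which holds the circulating complex together, by 0.02. Of 13 measured members 2 lay higher (15.4%, against 3.34% of all genes) and 3 lower (23.1%, against 5.64%), and Igfbp1, which set the sides, is 1 of the higher members. Jak2 lay lower as well after the repeated quantile normalisation. The high arrays of Igf1 spanned 12.79 to 12.83 and the low arrays 12.88 to 12.99, so both sides were narrow.

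Among 23 measured genes of insulin and mTOR signalling, Irs2 and Rheb lay higher (8.7%, against 3.34% of all genes) and Pik3r1, Mlst8 and Grb10 lower (13%, against 5.64%). Irs2, counted here, was a marker by which the state was proposed. Pik3r1, the regulatory subunit of PI3-kinase, read 10.54, 10.84, 10.67 and 10.98 on the high arrays and 11.20, 11.40, 11.53 and 11.23 on the low arrays, a gap of 0.22. Rheb, the activator of mTOR complex 1, separated by less than 0.01 and overlapped after centring. Of 12 glycogen genes, 3 lay lower (25%) and 1 higher (8.33%). Ppp1r3b, which brings protein phosphatase 1 to glycogen in the liver, read 8.80, 8.96, 8.86 and 9.22 on the high arrays and 9.78, 10.02, 9.62 and 9.76 on the low arrays, a gap of 0.39. Its relative Ppp1r3c lay lower by 0.13 and the kinase subunit Phkg2 by 0.01, and Phkg2 overlapped after centring. Slc2a2, the hepatic glucose transporter, lay higher by 0.13.

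Most fasting and mitochondrial genes overlapped between the sides, those that separated lay mainly upward, and their counts depended on the scaling. Of 22 measured fasting genes and PPARalpha targets 8 lay higher (36.4%, against 3.34% of all genes), 0 lower and 14 in neither direction, and 3 remained after centring the arrays: Angptl4, Cidec and Acadl, a long-chain acyl-CoA dehydrogenase. Fgf21, a fasting hormone of the liver, separated by only 0.01 and overlapped after either other scaling. Cpt1a, the gate of mitochondrial fatty acid import, overlapped. Of 28 oxidative phosphorylation genes 7 lay higher (25%), 1 lower and 20 in neither direction, and 2 higher and 0 lower remained after centring, Ndufa5 and Cox4i1. After the repeated quantile normalisation, by contrast, 10 oxidative phosphorylation genes lay higher and 1 lower, and 7 fasting genes lay higher and 0 lower. Ndufa5, a complex I subunit, read 8.25 on control 1 and 8.68, 8.88 and 8.77 on RKO 2 to 4, against 7.97 to 8.07 on the low arrays. By label the median difference was 0.22 for the fasting list and 0.09 for oxidative phosphorylation, and 0 members passed. Under the labels, 3 of the 22 fasting genes lay higher in RKO without overlap: Acadvl, Plin2 and Plin5. So did 4 of the 28 oxidative phosphorylation genes, Ndufa1, Uqcrh, Cox5a and Cox7a2, where 1.81% of all genes did so. In both lists 0 members lay lower by label.

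Smaller counts were found in the other pathway lists, where 3.34% of all genes lay higher and 5.64% lower. Shares of 1 to 3 members on lists of this size are descriptions only, and those of the acute phase (5%) and hypoxia (6.25%) lists were near that of all genes. The integrated stress response had 3 of 16 members higher: Trib3, a pseudokinase that binds Akt, by 0.24, Sesn2, a stress-induced inhibitor of mTOR complex 1, by 0.17, and Fgf21. Hmgcs1 and Dhcr7 of cholesterol synthesis lay higher by 0.12 and 0.06, as 2 of 17 members, and Dhcr7 overlapped after centring. Of 20 immediate early genes Egr1 and Ier3 lay higher, Egr1 from 8.19 to 9.33 on the high arrays and from 7.54 to 8.09 on the low arrays. Downward lay 2 of 18 clock genes (Hlf by 0.16 and Ciart by 0.03), 2 of 14 glucocorticoid response genes (Tsc22d3 by 0.10 and Klf9 by 0.03), and 2 of 13 bile acid synthesis genes (Hsd3b7 by 0.02 and Cyp27a1 by 0.01). Klf9 and Cyp27a1 overlapped after the repeated quantile normalisation. Rescaling also added members. Ddit3 of the stress list and Per2 of the clock list lay lower after centring. Btg2 of the immediate early genes and Cyp8b1 of bile acid synthesis lay higher after the repeated quantile normalisation. Saa4 was the 1 of 20 acute phase genes to separate, lower by 0.27, and Egln3 the 1 of 16 hypoxia genes, lower by 0.07. Acute phase genes that overlapped could still differ widely between single arrays. Saa2 read 11.88 on RKO 1 against 7.77 to 9.68 on the other arrays, and Saa1 read 8.78 against 5.6 to 7.61. RKO 4 was the next highest array in Saa1 and Saa2. RKO 1 did not lead in every member, since Lcn2 was highest on control 4 (11.46) and Hp on RKO 3 (13.75). The cause was not tested. In Ciart, a repressor of the clock, RKO 1 read 9.50 and control 1 9.47, and by label it differed by -1.14 (SE 0.27, limma adjusted p = 0.149). The other Ciart probe set lay lower on the Igfbp1-high arrays by 0.15. Under the labels, 4 of the 18 clock genes lay lower in RKO without overlap, where 2.61% of all genes did so. These were Usp2, Dbp, Tef and Nr1d2, with label gaps of 0.18, 0.16, 0.05 and 0.02.

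**Figure D5:**
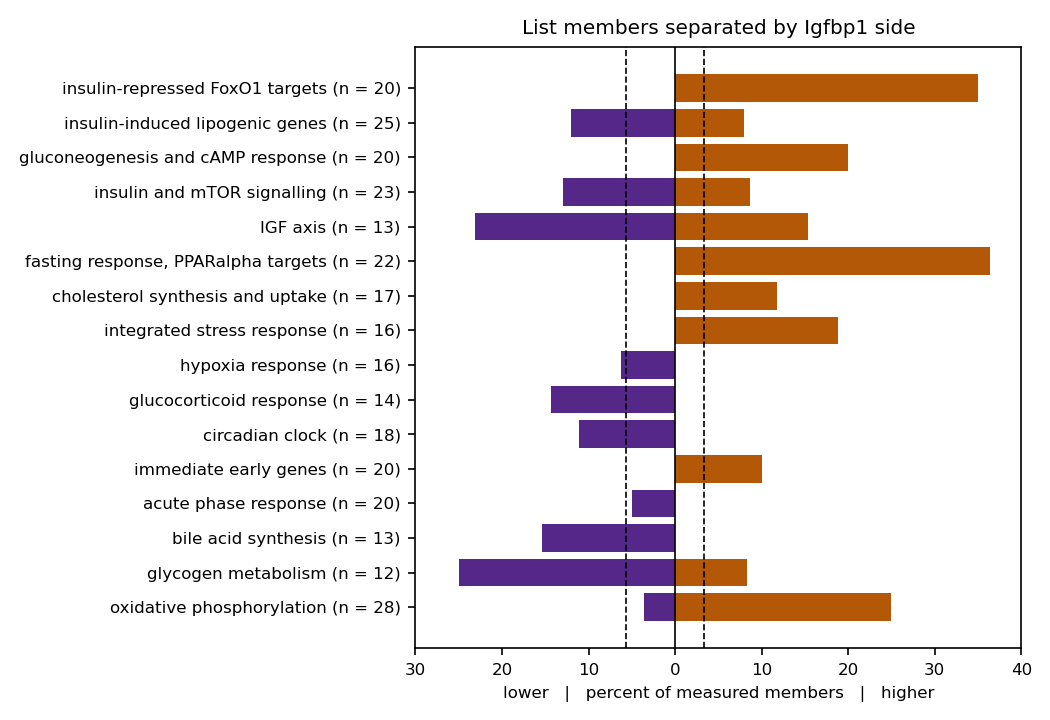
Share of the measured members of each pathway list (percent, horizontal axis) that lay higher (orange, to the right) or lower (purple, to the left) on all 4 Igfbp1-high arrays; n is the number of measured members and the dashed lines are the shares over all genes, 3.34% and 5.64%. FoxO1 targets and fasting genes reach 35% and 36.4% upward with 0 downward, while lipogenic genes lie on both sides. The FoxO1 targets include Igfbp1, which set the sides, and Irs2, a marker of the proposed state. After centring the arrays, 3 of the 22 fasting genes remained higher.

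Markers of other cell types were read beside these genes, since in whole liver fewer cells of a type and less RNA per cell cannot be told apart. Hepatocyte markers had 0 of 7 members higher and 1 lower (14.3%, against 5.64% of all genes). This was Fah, by 0.01, which overlapped after either other scaling. After centring, Hnf4a lay lower instead. The summed linear level of the hepatocyte markers ranged from 106431 to 108344 on the high and from 106580 to 109056 on the low arrays. Alb, Apoa1 and Cyp2e1, the brightest of them, read near the top of the scale, so the sum may be compressed. It does not measure the share of hepatocytes. Kupffer cell, lymphocyte, neutrophil, and adipocyte and muscle markers had 0 members separated of 10, 9, 10 and 9. Their summed levels overlapped between the sides in Kupffer cells (7413 to 13904 high, 6462 to 11457 low), lymphocytes (744 to 1010 and 820 to 1008), neutrophils (609 to 627 and 594 to 619) and adipocytes and muscle (847 to 971 and 852 to 947). Endothelial and stellate markers had 1 of 10 members higher each (10%, against 3.34% of all genes). These were Oit3 by 0.01 and Hgf by 0.02, and both overlapped after centring.

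In 3 marker lists the summed level did not overlap between the sides. In each list the brightest measured member on every array, Sox9, Alas2 or Fabp2, itself separated. That member weighs most in a linear sum, so the sum is no separate reading of the cell type. Of 7 cholangiocyte markers 3 lay lower on the Igfbp1-high arrays (42.9%, against 5.64% of all genes), Sox9 by 0.14, Muc1 by 0.08 and Pkhd1 by 0.06. The whole list summed to 1140 to 1290 on the high and 1518 to 2201 on the low arrays. The defining marker Krt19 overlapped, between 6.90 and 7.16 over all arrays, and Epcam read 6.82, 6.21, 6.31 and 6.06 on the high arrays and 6.85, 7.07, 6.72 and 7.03 on the low arrays. Slc10a2, which cholangiocytes express, lay lower on the same arrays, and the part of these cells in its gap was not tested. Of 4 measured erythroid markers Alas2 alone lay lower, by 0.12 (25%, against 5.64% of all genes), and Slc4a1, Epb42 and Tfrc overlapped. The erythroid list summed to 1845 to 2064 on the high and 2360 to 2841 on the low arrays. Of 7 pancreas and gut markers Fabp2 alone, the intestinal fatty acid binding protein, lay higher, by 0.48 (14.3%, against 3.34% of all genes). The pancreas and gut list summed to 2925 to 3825 on the high and 1871 to 2198 on the low arrays. The other members of that list, Cela1, Cpa1, Ctrb1, Vil1, Muc2 and Lct, overlapped, and the part of either tissue in the results was not tested.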

How the data were processed

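Liver RNA of 8 mice was measured on 1 array each. The authors' deposited values are log2 expression values of 35556 probe sets; the submitters' processing notes name RMA, Affymetrix Expression Console and Partek without versions, and the log base was read from the values. RMA makes arrays alike, so a change of most genes together would not be seen. Gene names came from the platform annotation, updated with RefSeq (GRCm38.p6): 21789 had 1 gene symbol (21698 matched by Entrez identifier), 1621 several and 12146 none. They stand for 19938 genes, 999 with more than 1 probe set, each taken by its brightest.

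The members, lists and panel were chosen with earlier results of these data known. Grouping by a measured value allows no test between the sides. By label, limma 3.58.1 in R 4.3.3 (lmFit, eBayes with trend) was fitted over the 21789 probe sets without covariates, two-sided, with Benjamini-Hochberg adjustment and a threshold of 0.05. Its procedure was tested on simulated data. The number of arrays limits the precision. At most 18 values were identical between any pair of arrays, and each counted as 1 sample.

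Named were 72 genes: the measured 32 of a 34-gene panel, the 12 widest gaps in each direction without predicted genes, unnamed models and some large families, and the 2 widest of each of 16 pathway lists. Of 395 genes in these and 10 marker lists 31 were not analysed here. Same-numbered arrays of the 2 labels deviated from their label means with correlations of 0.00356, -0.0948, -0.0625 and 0.211, so the numbers were not used as pairs. Alternatives were 2 scalings, a filter at a mean of 6, all probe sets, a minimum gap, array weights, no trend, a replicate block, and leaving out arrays. Marker levels were summed as linear values.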

Additional observations from a re-analysis of the deposited data

Results flagged for a closer look

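For the 72 named genes each label's 4 arrays were checked for 1 array that lay far from the other 3, by Dixon's criterion for 4 samples at 95%. Of 144 sets of 4 arrays 20 held such an array, where chance gives about 1 in 20. Control 1 was that array in 10 genes and RKO 1 in 6. Several of these genes were chosen for their gap, which places both arrays away from their labels, so the number supports nothing further.

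Among controls, control 1 was apart at 10.04 in Igfbp1, 9.08 in Irs2, 10.66 in Lepr, 10.72 in Rgs16, 8.79 in Nipal1 and 8.25 in Ndufa5, all above the other controls. It was apart at 10.58 in Angptl8, 8.28 in Nat8, 10.02 in Sdr9c7 and 11.25 in Mlxipl, all below them. Mlxipl is the exception that does not separate the sides, since RKO 1 read 11.23 there, with control 1 and the other RKO arrays.

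Among the RKO arrays, RKO 1 was apart at 8.24 in Irs2, below the others, and at 14.02 in Scd1, 12.94 in Igf1, 8.18 in Obp2a, 10.07 in Nat8 and 7.31 in Ncam2, above them. Irs2 and Nat8 were the genes in which both arrays numbered 1 were apart.

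Other arrays were apart in 4 genes: RKO 3 in Fgf21 at 7.50, control 2 in Cpt1a at 12.94, control 3 in Ddit4 at 8.07 and RKO 2 in Cyp27a1 at 13.08.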

How the results depend on the processing

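The number of arrays limits every count, and the scaling moves several of them. Of 52 named gaps, 48 kept their direction with a repeated quantile normalisation and 50 with arrays centred on their medians. The exceptions were Srebf1 (-0.037), Fgf21 (-0.078), Klf9 (-0.052) and Cyp27a1 (-0.034) under the first and Fgf21 (-0.063) and Dhcr7 (-0.017) under the second; their cause was not tested. All 52 kept it with single arrays left out, which can only widen a gap.

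Counted by Igfbp1 side, 406 genes were higher with centred arrays, and a gap of at least 0.2 left 66 higher and 145 lower. Single arrays left out gave 852 to 1369 higher and 1324 to 2517 lower. Leaving out control 1 and RKO 1 together, which was added once the data had been seen, gave 1824 higher and 3112 lower. By label, centred arrays gave 228 lower, a gap of at least 0.2 left 8 higher and 2 lower, and single arrays left out gave 449 to 1145 higher and 664 to 2208 lower. The rises with fewer arrays follow from the construction.

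The genotype comparison called 0 genes at equal weights, 707 with array weights and 0 to 877 with single arrays left out (59 without control 1, 877 without RKO 1). The replicate block called 0 genes and gave a limma adjusted p of 0.547 for Igfbp1; it changed no call, and the arrays share only a number. Quantile normalisation, centring, the filter, no trend and all probe sets also called 0. The Igfbp1 difference by label ranged between 1.15 and 2.07 when arrays were left out in turn (exact permutation p from 0.0571 to 0.229). Of 22 single-gene genotype differences 11 passed with array weights, 12 without RKO 1 and 2 without control 1, and none of 308 alternatives reversed a sign.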

Other observations

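Beyond the genes named by rule, the following were chosen after their values were seen, from those with gaps of at least 0.5. Upward there was Fst, which encodes follistatin, a secreted inhibitor of activins. It read 8.33 on control 1 and 8.58, 8.41 and 8.24 on RKO 2, 3 and 4, against 7.28, 7.33, 7.74 and 7.64 on controls 2, 3 and 4 and RKO 1, a gap of 0.50. Downward, Leap2, the liver-made antagonist of the ghrelin receptor, read 7.07, 7.20, 7.40 and 7.28 on the high arrays and 8.04, 7.95, 8.11 and 8.18 on the low arrays, a gap of 0.55. Bmp7, a secreted member of the TGF-beta family, lay lower by 0.61 and Serpina12, the secreted protein vaspin, by 0.64.

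Noct, the deadenylase-like protein nocturnin, read 8.59, 8.55, 8.52 and 8.36 on the high arrays and 9.26, 9.60, 9.47 and 9.37 on the low arrays, a gap of 0.67. Receptors and transporters were also found downward: Sucnr1, the succinate receptor, by 0.65, Erbb4, a neuregulin receptor whose relative Erbb3 lay higher, by 0.60, Slc3a1, a subunit of the cystine transporter, by 0.64, and the potassium channel Kcnk5 by 0.66. The predicted gene Gm4956, left out by the rule, lay lower by 1.29, from 5.61 to 5.86 on the high arrays and from 7.15 to 8.08 on the low arrays. In Erbb4 and Gm4956 the high arrays were dim, so their gaps may be compressed.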
